A study of Mus musculus with 8 samples.

Results

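The genes described here are C-type lectin receptors of mouse chromosome 6: Clec4e, Clec4d, Clec4n, Clec4a1, Clec4a2 and Clec4a3 of the Dectin-2 cluster, and Clec7a, Clec12a, Clec2d and Olr1 of the Dectin-1 cluster. These 10 of the 55421 genes in the deposited expression table were found by gene identifier. The set was chosen partly because Clec4e was lower in Baf60a knockout (Baf60a KO) cells in an earlier fit of these libraries. The difference of Clec4e is therefore a description and carries no test. RNA sequencing was done on bone marrow derived macrophages (BMDM), primary cells grown from mouse marrow, with 4 libraries labelled Baf60a KO and 4 labelled wild type (WT). Both groups were collected at day 7 of macrophage differentiation, with no other agent named in the labels, and the series title names C57 mice. Baf60a is the protein of the gene Smarcd1, part of BAF (SWI/SNF) complexes, which remodel chromatin. The way of deletion, the cells it affected and the exons removed are not stated in the labels. Nor is the origin of the 4 libraries of each group (different mice, or repeats from 1 culture), and the p-values therefore reflect only how these libraries varied, which may be technical.

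C-type lectin receptors of myeloid cells bind sugars, lipids and ligands of damaged cells. Mincle (Clec4e), its neighbour MCL (Clec4d) and Dectin-2 (Clec4n) have no activating motif of their own and signal through the Fc receptor gamma chain to the kinase Syk and the adaptor Card9, whereas Dectin-1 (Clec7a), the receptor of fungal beta-glucan, carries an activating motif in its own tail. Other receptors of the same clusters are inhibitory: Clec12a (MICL), a receptor of uric acid crystals, and Clec4a2 (DCIR1) carry motifs that recruit the phosphatases SHP-1 and SHP-2.

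The members lie in a pair of clusters 5.89 Mb apart (GENCODE M21 annotation, mm10, chromosome 6). In the Dectin-2 cluster, Clec4d (123262111 to 123275265, plus strand) and Clec4e (123281789 to 123289870, minus strand) are next to each other with their 3′ ends facing, 6.52 kb apart. The sequences before these neighbouring genes are shown because Clec4e differed between the groups and Clec4d did not pass the test. The 250 bases before each start come from RefSeq (GRCm38.p6, the assembly of mm10), at chr6:123289872-123290121 on the minus strand for Clec4e and at chr6:123261857-123262106 on the plus strand for Clec4d. They are written 5′ to 3′, and capitals mark matches to GAGGAA (the core of sites of the myeloid factor PU.1), TTGCNNAA (a C/EBP pattern) or TATAAA, on either strand.
Clec4e: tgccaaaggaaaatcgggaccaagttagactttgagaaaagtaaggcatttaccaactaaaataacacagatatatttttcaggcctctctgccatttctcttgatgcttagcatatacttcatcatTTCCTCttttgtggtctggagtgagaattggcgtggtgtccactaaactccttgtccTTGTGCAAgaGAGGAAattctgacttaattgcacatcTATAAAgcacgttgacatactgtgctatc
Clec4d: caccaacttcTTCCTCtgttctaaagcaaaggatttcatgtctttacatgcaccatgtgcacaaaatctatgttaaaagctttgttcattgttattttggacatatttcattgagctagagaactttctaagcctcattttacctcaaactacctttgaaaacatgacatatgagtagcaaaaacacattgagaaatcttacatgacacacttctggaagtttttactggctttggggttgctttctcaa
The Clec4e window held GAGGAA 2 times (once as its complement TTCCTC), TTGCNNAA 1 time on the other strand (as TTNNGCAA) and TATAAA 1 time, with no overlap between matches. The Clec4d window held GAGGAA 1 time, as TTCCTC, and neither of the others. GAGGAA was present in 23.3% of all 32851 RefSeq windows of this length, TTGCNNAA in 9.56% and TATAAA in 12.4%, so such matches are common. Taking the first window listed for each of the 9 members in the RefSeq table, 6 held GAGGAA, 2 held TTGCNNAA (Clec4e and Clec12a) and 2 held TATAAA. The Clec12a window, which also holds a TGANTCA match, lies within GENCODE exons over all of its 250 bases, and that of Clec4a2 over 68 bases. The AP-1 pattern TGANTCA was in 2 of the 9 windows against 6.75% of all windows. The NF-kB pattern (GGGA, any 2 bases, then TTCC, or its complement) was in 0 of the 9 against 1.21% of all. The interferon response pattern (GAAA, any 2 bases, then GAAA, or its complement) was in 1 of the 9 against 2.98%. A match of letters is a description of the window and not a site.

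Transcript levels are given in TPM, a share of all transcripts that takes gene length into account, so levels of different genes can be set side by side. Smarcd1 averaged 10.5 ± 0.447 TPM in Baf60a KO and 14.8 ± 0.998 TPM in WT (SD, n = 4 each), with no overlap between the groups and a log2 fold change of -0.47 (SE 0.061, limma adjusted p = 0.00756). Log2 fold changes here are means of log2(TPM + 1) in Baf60a KO less those in WT. Over all 13933 genes tested the median was 0.03, with the middle 90% between -0.27 and 0.32. At an adjusted p under 0.05, 613 genes rose and 169 fell, 782 in all, against 201 and 171 without WT replicates 3 and 4, with 156 (without KO replicate 4) to 679 (without WT replicate 1) called when 1 library was left out. Median-of-ratios scaling gave 503 higher and 406 lower, quantile normalization 440 and 254, and rescaling over protein-coding genes 594 and 321. Processed pseudogenes held 7.48% to 8.38% of the TPM in the KO libraries and 6.78% and 7.62% in WT replicates 1 and 2, but 12.0% and 12.2% in WT replicates 3 and 4. Calls that were lost without WT replicates 3 and 4 are given beside the genes named, and the part of this share in the results was not tested. Depth per library is unknown, since TPM keeps no read counts.

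In the Baf60a KO libraries, 2 of the 9 lectins tested were higher than in WT (Clec12a and Clec4n), 1 was lower (Clec4e) and 6 did not pass the test; Olr1 was too low to be tested. Among all genes tested, 5.61% were called in either direction, 4.4% higher in KO and 1.21% lower in KO. The groups did not overlap for 3 of the 9 tested lectins, against 15.8% of all genes. Since Clec4e was chosen from this comparison, nothing is read from these counts. The median log2 fold change of the 9 was -0.03, next to 0.03 over all genes. The summed level of the 10 lectins was 830 ± 11.4 TPM in KO and 857 ± 37.2 TPM in WT (SD, n = 4 each), so the set as a whole differed by less than the spread between WT libraries. In bulk RNA, fewer cells of a type and less RNA per cell cannot be told apart.

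**Figure D1:**
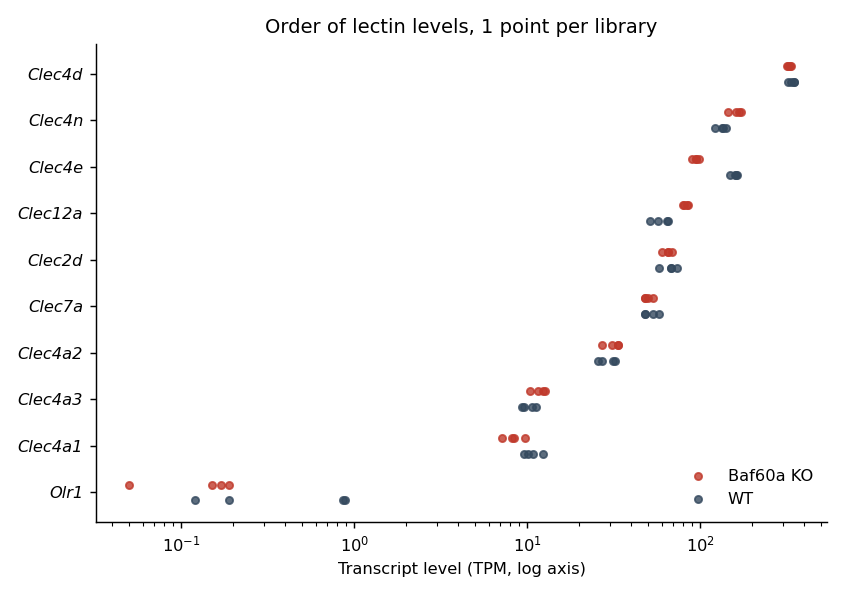
Transcript level of each lectin (x axis, TPM, log axis) in each Baf60a KO library and each WT library, 1 point per library, with the genes ordered down the page. Clec4d is highest in both groups, Clec4e stands between 89.5 and 98.9 TPM in KO and between 148 and 163 TPM in WT, and Olr1 lies under 1 TPM throughout.

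The order of lectin levels was not the same in the 2 groups. In KO the order of mean TPM, high to low, was Clec4d, Clec4n, Clec4e, Clec12a, Clec2d, Clec7a, Clec4a2, Clec4a3, Clec4a1 and Olr1, and no neighbours in this order had overlapping libraries. In WT it was Clec4d, Clec4e, Clec4n, Clec2d, Clec12a, Clec7a, Clec4a2, Clec4a1, Clec4a3 and Olr1. There the libraries of Clec2d and Clec12a overlapped, as did those of Clec12a and Clec7a and those of Clec4a1 and Clec4a3. Mincle thus stood below Dectin-2 in KO and above it in WT, with every library of one apart from every library of the other. This change of place rests in part on the lower level of Clec4e in KO, on which the set was chosen, and is a description. The order of all 10 in both groups was the same when TPM was rescaled over protein-coding genes.

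Clec4e encodes Mincle, the receptor of the mycobacterial glycolipid trehalose dimycolate and of a ligand released by dying cells. It had 94.94, 94.97, 89.51 and 98.92 TPM in KO replicates 1 to 4, against 163, 161, 148 and 159 TPM in WT replicates 1 to 4. Every KO library was below every WT library. The means were 94.6 ± 3.87 TPM in KO and 158 ± 6.60 TPM in WT (SD, n = 4 each), a ratio of 0.600. The log2 fold change was -0.73. Leaving out each library in turn moved it between -0.76 and -0.71, and it was -0.77 without WT replicates 3 and 4. No 51-base stretch of its annotated transcripts, the read length of these libraries, was shared with another gene.

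Clec4d encodes MCL, which in rodents pairs with Mincle and helps bring it to the cell surface, and was the most abundant of the lectins. It had 329, 335, 316 and 322 TPM in KO replicates 1 to 4, against 349, 333, 322 and 347 TPM in WT replicates 1 to 4. The groups overlapped. The means of 325 ± 8.26 TPM in KO and 338 ± 12.8 TPM in WT gave a log2 fold change of -0.05 (SE 0.039, 95% interval -0.14 to 0.04, limma adjusted p = 0.487).

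Clec4n encodes Dectin-2, the receptor of fungal alpha-mannan. It had 167, 146, 172 and 162 TPM in KO replicates 1 to 4, against 142, 133, 122 and 136 TPM in WT replicates 1 to 4. Every KO library was above every WT library, with KO replicate 2 the nearest to WT. It rose, with means of 162 ± 11.6 TPM in KO and 133 ± 8.44 TPM in WT, a ratio of 1.22 and a log2 fold change of 0.28 (SE 0.065, 95% interval 0.13 to 0.43, limma adjusted p = 0.0440). The call was lost in 6 of the 8 fits without 1 library, while the log2 fold change stayed between 0.24 and 0.33. The adjusted p was 0.114 without KO replicate 1, 0.118 without KO replicate 3 and 0.118 without KO replicate 4. It was 0.0859 without WT replicate 2, 0.0692 without WT replicate 3, 0.0905 without WT replicate 4 and 0.106 without WT replicates 3 and 4 together. The call held without KO replicate 2 or without WT replicate 1, and was also lost with no filter on low values (0.0886), with no mean-variance trend (0.0646) and with quantile normalization (0.0644). A share of 0.622% of its 51-base stretches also occurred in a processed pseudogene, Gm44147, which was listed at 0 in every library.

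The 3 DCIR genes were lower in level and none passed the test. Clec4a2, the inhibitory DCIR1, was the highest of them, with 31.1, 33.4, 33.6 and 27.2 TPM in KO replicates 1 to 4, against 32.03, 31.4, 25.5 and 27.2 TPM in WT replicates 1 to 4. The groups overlapped widely, and the log2 fold change was 0.11 (95% interval -0.10 to 0.32, adjusted p = 0.555), turning to -0.02 without WT replicates 3 and 4. Of its 51-base stretches, 6.69% occurred in other genes, 3.82% in Clec4a4, whose highest value was 0.20 TPM.

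Clec4a1 (DCIR4 in mice) had 8.38, 8.18, 9.68 and 7.16 TPM in KO replicates 1 to 4, against 12.3, 9.59, 10.8 and 10.2 TPM in WT replicates 1 to 4. KO replicate 3 reached into the WT range. Its log2 fold change of -0.33 (SE 0.099, 95% interval -0.55 to -0.10, limma adjusted p = 0.0932) did not pass the test. Clec4a3 (DCIR3 in mice) had 12.3, 11.5, 12.8 and 10.4 TPM in KO replicates 1 to 4, against 11.2, 9.29, 10.7 and 9.55 TPM in WT replicates 1 to 4. Only KO replicate 4 lay within the WT range. The log2 fold change was 0.19 (SE 0.082, 95% interval 0.00052 to 0.37, adjusted p = 0.223). Neither shared a 51-base stretch with another gene.

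In the Dectin-1 cluster, Clec12a, the inhibitory receptor MICL (chromosome 6, 129342691 to 129365303, plus strand), was higher in KO. It had 83.9, 85.1, 79.9 and 80.1 TPM in KO replicates 1 to 4, against 65.0, 57.4, 50.9 and 64.2 TPM in WT replicates 1 to 4. The groups were apart, and the KO libraries lay closer together than those of WT. The means were 82.2 ± 2.65 TPM in KO and 59.4 ± 6.57 TPM in WT, a ratio of 1.39 and a log2 fold change of 0.47 (SE 0.076, 95% interval 0.30 to 0.64, limma adjusted p = 0.0157). Of all genes tested, 1.89% had a higher fold change. The adjusted p was 0.05005 without KO replicate 1, 0.0536 without KO replicate 2 and 0.0522 without KO replicate 4, and was 0.0250 without WT replicates 3 and 4, with a log2 fold change of 0.42.

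Clec7a, Dectin-1, had 53.6, 47.9, 47.7 and 49.7 TPM in KO replicates 1 to 4, against 58.1, 48.2, 47.9 and 53.2 TPM in WT replicates 1 to 4. The libraries of the groups were interleaved. Its log2 fold change was -0.06 (SE 0.070, 95% interval -0.22 to 0.10, adjusted p = 0.710). GENCODE classes this gene as a polymorphic pseudogene, so it falls outside the protein-coding total, although it has protein-coding transcripts.

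Clec2d encodes Clr-b, which in mice is the ligand of the inhibitory natural killer cell receptor Klrb1b. It had 64.8, 69.0, 65.3 and 60.2 TPM in KO replicates 1 to 4, against 67.4, 67.4, 73.1 and 57.8 TPM in WT replicates 1 to 4. The WT libraries spanned all 4 KO libraries, and the log2 fold change of -0.03 (95% interval -0.20 to 0.14, adjusted p = 0.861) had no stable sign. It was 0.0030 without KO replicate 4 and 0.015 without WT replicate 3.

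Olr1 encodes LOX-1, a receptor of oxidised low-density lipoprotein. It had 0.19, 0.15, 0.05 and 0.17 TPM in KO replicates 1 to 4, against 0.86, 0.89, 0.12 and 0.19 TPM in WT replicates 1 to 4. WT replicates 1 and 2 were high, and the other WT libraries were within the KO range. It never passed 1 TPM and was not tested.

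**Figure D2:**
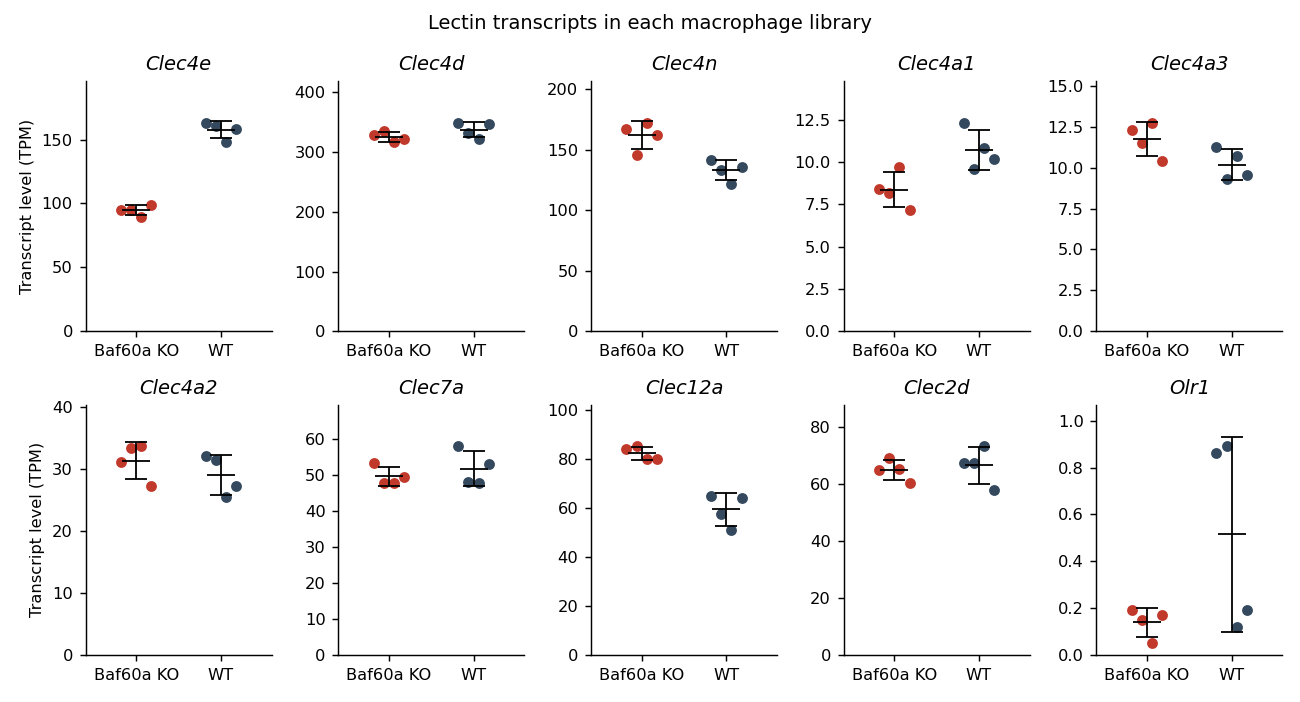
Transcript level (y axis, TPM) of each of the 10 lectins in Baf60a KO (left) and WT (right) libraries, 1 point per library, with the mean and SD as black bars. The groups are apart for Clec4e, Clec4n and Clec12a and overlap for the other panels.

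Setting each lectin against Clec4d in the same library removes whatever scales a whole library. For Clec4e this ratio was 0.289, 0.283, 0.283 and 0.307 in KO replicates 1 to 4, against 0.467, 0.484, 0.461 and 0.457 in WT replicates 1 to 4. The means were 0.291 ± 0.0115 in KO and 0.467 ± 0.0117 in WT. This ratio carries the difference of Clec4e on which the set was chosen, and is a description only. For Clec4n the ratio averaged 0.498 ± 0.0463 in KO and 0.394 ± 0.0123 in WT, and its lowest KO library (0.434) was above its highest WT library (0.406). For Clec12a it averaged 0.253 ± 0.00270 in KO and 0.175 ± 0.0130 in WT, again with no overlap. For Clec7a it was the same in both groups to within the spread, 0.153 ± 0.00835 in KO and 0.153 ± 0.00927 in WT (SD, n = 4 each). A ratio shows unequal change of its 2 genes and not that Clec4d was unchanged.

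**Figure D3:**
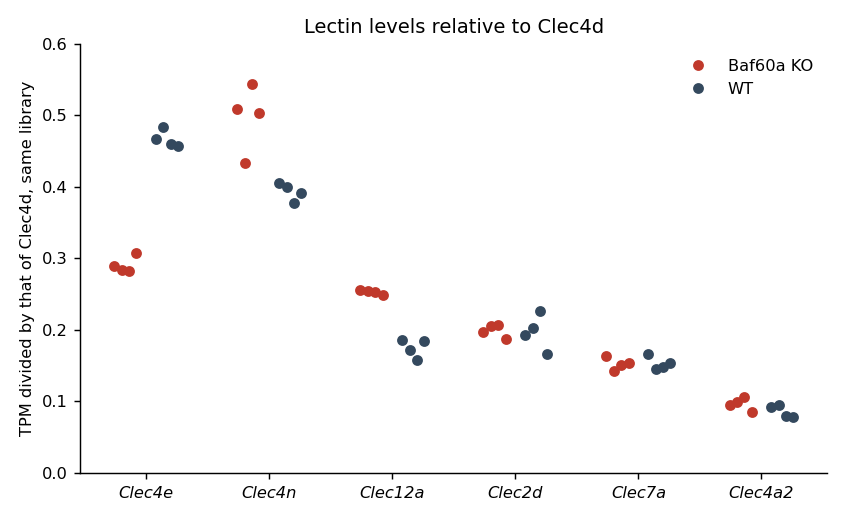
TPM of 6 lectins divided by that of Clec4d in the same library (y axis, no unit), with Baf60a KO libraries left and WT libraries right for each gene, 1 point per library. Clec4e lies near 0.291 in KO and 0.467 in WT, Clec12a near 0.253 in KO and 0.175 in WT, and Clec7a near 0.153 in both.

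The Dectin-2 cluster, from Clec4a1 to Clec4e, spans 368 kb and holds 13 annotated genes, of which 8 were tested. Besides the 6 members these were Clec4b1, a relative of the DCIR genes, with 1.88 to 3.27 TPM in KO and 3.25 to 3.47 TPM in WT (adjusted p = 0.254), and the processed pseudogene Gm5883 (adjusted p = 0.795). The Dectin-1 cluster, from Clec2d to Olr1, spans 327 kb and holds 14 genes, of which 5 were tested. Besides 3 members these were the noncoding RNA 2310001H17Rik, with 6.67 ± 1.43 TPM in KO and 4.75 ± 0.747 TPM in WT (log2 fold change 0.40, adjusted p = 0.158), and Cd69, an activation marker, with 7.08 ± 0.201 TPM in KO and 6.40 ± 0.484 TPM in WT (adjusted p = 0.282). None of these other tested genes, 2 in each cluster, was called by limma, and 1 of them, 2310001H17Rik, had an unadjusted p under 0.05. Since 5.61% of all genes tested were called, the lack of a call among so few genes shows nothing about the clusters. Of the 8 tested genes nearest to the clusters (2 on each side), 6 were not called, with log2 fold changes between -0.05 and 0.15. Some of the 8 were far away. The start sites of Pex5 and C1rl lay 1125 and 1203 kb from that of Clec4e, and that of Klra3 lay 995 kb from that of Clec12a. Among those not called were Necap1 (0.01, adjusted p = 0.945), an endocytic protein gene beside Clec4a1, and Gabarapl1 (-0.05, 0.736), an autophagy gene beside Olr1. The next tested gene beyond Necap1, C3ar1, the receptor of complement fragment C3a, rose to 64.9 ± 1.36 TPM in KO, against 44.3 ± 3.03 TPM in WT (log2 fold change 0.54, adjusted p = 0.00181). It kept this call without each library in turn. Klra3, a natural killer cell receptor gene, had 1.06 to 1.85 TPM in KO and 0.64 to 0.80 TPM in WT, so it passed the filter on low values only through KO, and its call (adjusted p = 0.0356) is not used. These flanking genes were named after their values were seen.

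**Figure D4:**
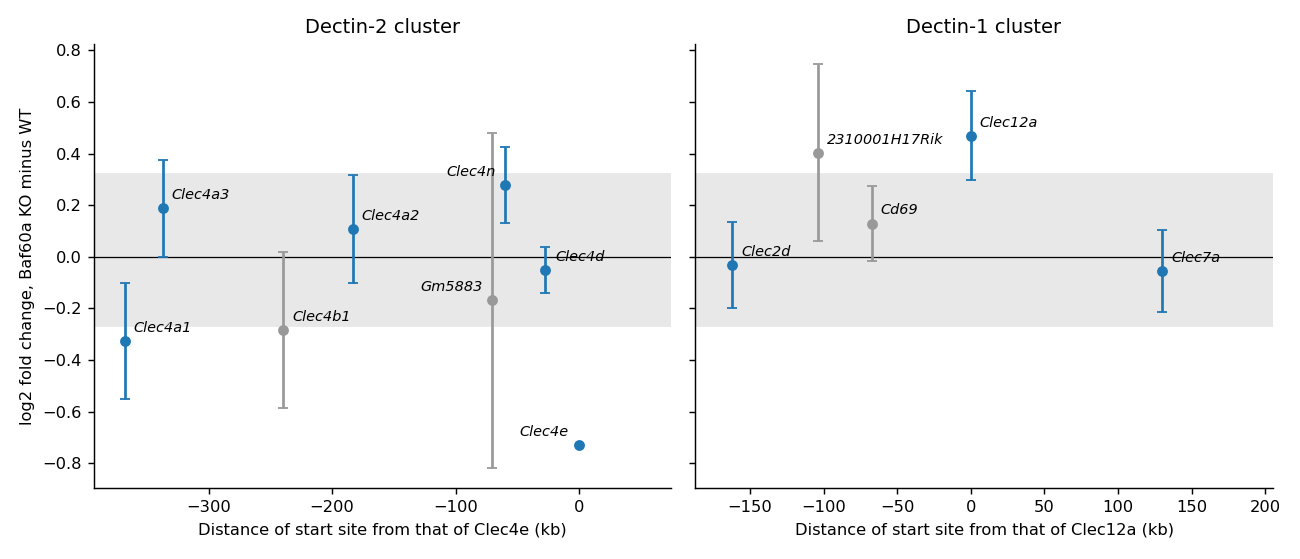
Log2 fold change (y axis, Baf60a KO minus WT) of the tested genes inside each cluster, lectins in blue and other genes in grey, with 95% intervals as bars except for Clec4e and the middle 90% of all genes as a grey band, against the distance of their start site from that of Clec4e or Clec12a (x axis, kb). Clec4e stands at -0.73, its neighbours Clec4d and Clec4n at -0.05 and 0.28, and Clec12a at 0.47.

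The 5 tested genes whose pattern over the 8 libraries was nearest to that of Clec4e were Gadd45a, Mfsd7a, Siglec1, Ifi27l2a and Rpp40. Nearness was the root mean square difference of log2(TPM + 1) after subtracting each gene's WT mean, and was 0.0525 for Gadd45a, 0.0753 for Mfsd7a, 0.0959 for Siglec1, 0.105 for Ifi27l2a and 0.123 for Rpp40. Gadd45a, a DNA damage and stress response gene, averaged 279 ± 17.6 TPM in KO and 449 ± 26.6 TPM in WT, a log2 fold change of -0.68. Siglec1, a sialic acid receptor of macrophages, had a log2 fold change of -0.83, and the interferon-induced Ifi27l2a averaged 325 ± 17.2 TPM in KO and 523 ± 56.9 TPM in WT. These genes were picked by likeness to a chosen gene, and their levels carry no test.

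Of 26 genes that carry the activating signal of these receptors, all tested, 4 rose, 0 fell by limma and 22 did not pass the test, with a median log2 fold change of 0.04. At an unadjusted p under 0.05, 10 were higher and 3 lower. The shares over all genes tested were 4.4% higher and 1.21% lower at the adjusted threshold, and 15.9% higher and 6.42% lower at the unadjusted p, against which the counts of this and the other lists stand. The Fc receptor gamma chain Fcer1g, on which Mincle, MCL and Dectin-2 depend, averaged 697 ± 50.3 TPM in KO and 649 ± 46.2 TPM in WT (log2 fold change 0.10, 95% interval -0.05 to 0.25, adjusted p = 0.418). Syk averaged 85.5 ± 1.002 TPM in KO and 89.8 ± 7.28 TPM in WT (adjusted p = 0.541), and Card9 averaged 27.1 ± 1.46 TPM in KO and 31.8 ± 4.52 TPM in WT (adjusted p = 0.218). These 3 were picked for their place in the pathway after values were seen. Among those that rose were the phosphoinositide kinase subunit Pik3cd (log2 fold change 0.33, adjusted p = 0.0251), the adaptor Tyrobp (0.25, 0.0260) and the Card9 partner Bcl10 (0.22, 0.0448). Pik3cd lost its call without any KO replicate or WT replicate 4, Tyrobp without any KO replicate or WT replicate 2 or 4, and Bcl10 without any 1 library other than WT replicate 2. The adjusted p reached 0.0800 for Pik3cd, 0.0778 for Tyrobp and 0.119 for Bcl10, each without KO replicate 4. Without WT replicates 3 and 4 it was 0.0701 for Pik3cd, 0.0733 for Tyrobp and 0.101 for Bcl10.

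Of 12 genes of inhibitory signalling, 11 were tested, 2 rose and 0 fell by limma, with a median of 0.18 (6 higher and 1 lower at an unadjusted p under 0.05). The list is broader than the phosphatases SHP-1 and SHP-2 that Clec12a and Clec4a2 recruit, and is not a measure of signalling by these receptors. Ptpn6, which encodes SHP-1, had 54.8, 51.6, 57.6 and 53.7 TPM in KO replicates 1 to 4, against 38.1, 38.4, 35.0 and 35.4 TPM in WT replicates 1 to 4. The groups were well apart, and the log2 fold change of 0.56 (SE 0.051, adjusted p = 0.00159) kept its call without each library in turn. Csk, a kinase that restrains Src kinases, rose by 0.25 (adjusted p = 0.0409), but the call was lost on leaving out any 1 library other than WT replicate 2 (adjusted p up to 0.107) and without WT replicates 3 and 4 (0.111). Inpp5d, the lipid phosphatase SHIP-1, picked out after its values were seen, averaged 41.0 ± 2.96 TPM in KO and 31.5 ± 4.21 TPM in WT (log2 fold change 0.38, adjusted p = 0.0593). It passed the threshold without WT replicate 1 (0.0408) and when TPM was rescaled over protein-coding genes (0.0489).

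Of 27 listed response genes of Mincle and the dectins, 15 were tested, 1 rose, 4 fell and 10 did not pass, with a median of -0.24. At an unadjusted p under 0.05, 3 were higher and 8 lower. The neutrophil chemokine Cxcl2 fell to 2.02 ± 0.443 TPM in KO, against 7.94 ± 2.24 TPM in WT (log2 fold change -1.55, adjusted p = 0.00359). The monocyte chemokine Ccl2 rose to 30.9 ± 2.09 TPM in KO, against 19.5 ± 2.13 TPM in WT (0.64, 0.00624). Both kept the call without each library in turn. Cxcl1, a related chemokine counted among the 4 and among the 8, had 0.27 to 0.92 TPM in KO and 1.42 to 2.33 TPM in WT. It passed the filter on low values only through WT, so it had to differ, and it dropped out of every fit without 1 WT library. The early response factor Egr1 fell by 0.53 (0.0250), with an adjusted p of 0.0626, 0.0638, 0.0755 and 0.0530 without KO replicates 1, 3 and 4 and WT replicate 2. Il1a, named after its values were seen, fell by 0.63 (0.0378) and, of the fits without 1 library, kept the call only in that without WT replicate 3 (adjusted p up to 0.110 in the others).

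**Figure D5:**
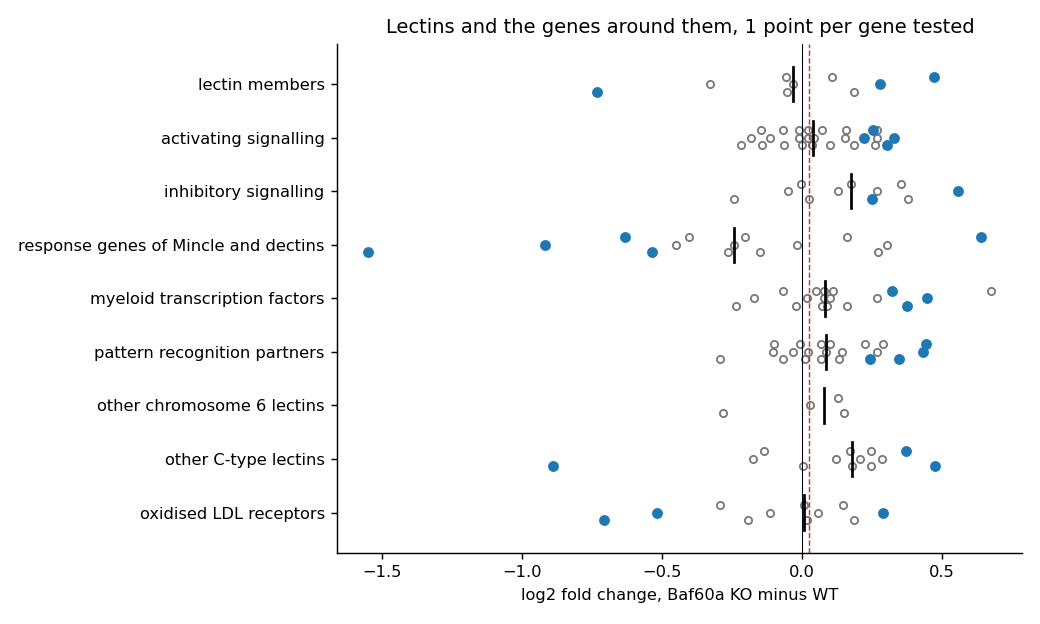
Log2 fold change (x axis, Baf60a KO minus WT) of every tested gene in the lectin set and in 8 lists around it, 1 point per gene, filled where the adjusted p was under 0.05, with the list median as a black bar and the median of all genes (0.03) as a dashed line. Medians lie between -0.24 for the response genes and 0.18 for the inhibitory signalling genes and other C-type lectins. For Clec4e, on which the set was chosen, the adjusted p carries no test.

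Elsewhere in the lectin family, 29 other lectins of chromosome 6 were listed, a list that did not hold Klra3 or Clec5a. Of the 28 found, 4 were tested and 0 were called by limma (1 had an unadjusted p under 0.05). Of the same 28, 22 never passed 1 TPM and 2 of those were at 0 throughout. The most abundant on this list was Clec2i, a relative of Clec2d, with 7.57 ± 0.544 TPM in KO and 6.71 ± 0.202 TPM in WT (log2 fold change 0.15, adjusted p = 0.203). Clec5a, on chromosome 6 but counted with the lectins outside the clusters, averaged 12.4 ± 0.804 TPM in KO and 10.3 ± 0.716 TPM in WT. Klrb1b, the receptor of Clec2d on natural killer cells, was under 1 TPM. Of 30 C-type lectins outside these gene clusters, 13 were tested, 2 rose and 1 fell (8 higher and 2 lower at an unadjusted p under 0.05). Clec10a, a galactose-type lectin, fell to 4.55 ± 0.629 TPM in KO, against 9.27 ± 1.18 TPM in WT (-0.89, 0.00503), and Cd248, a lectin of stromal cells, rose to 29.5 ± 0.402 TPM in KO, against 20.9 ± 1.09 TPM in WT (0.48, 0.00222). Cd72 rose by 0.37 (0.0276) and kept the call only without KO replicate 2 or WT replicate 1 (adjusted p up to 0.0801 in the other fits, and 0.0851 without WT replicates 3 and 4).

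Factors known to act on myeloid receptor genes gave 3 that rose and 0 that fell by limma of 18 tested (6 higher and 1 lower at an unadjusted p under 0.05). They included Mitf (0.38, adjusted p = 0.0269) and Cebpa (0.32, 0.0452), and each of these lost its call when 1 library was left out (Mitf: any KO replicate or WT replicate 4; Cebpa: any but WT replicate 1), with an adjusted p of 0.0815 for Mitf and 0.127 for Cebpa when KO replicate 4 was absent. Neither was called without WT replicates 3 and 4 (0.0777 for Mitf and 0.0813 for Cebpa). Spi1, which encodes PU.1, averaged 133 ± 7.54 TPM in KO and 129 ± 12.4 TPM in WT (log2 fold change 0.05, adjusted p = 0.755), and -0.05 without WT replicates 3 and 4. Cebpb averaged 164 ± 13.3 TPM in KO and 173 ± 22.8 TPM in WT (-0.07, 95% interval -0.29 to 0.15). These 2 were named, after their values were seen, because their patterns were searched in the windows shown above.

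Of 21 tested partners in pattern recognition, 4 rose and 0 fell by limma (7 higher and 1 lower at an unadjusted p under 0.05). The 4 were the adaptor Ticam1 (0.35, adjusted p = 0.0221), the integrin chains Itgam (0.44, 0.0285) and Itgb2 (0.24, 0.0467), and Tlr1 (0.43, 0.0421). Ticam1 lost the call without KO replicate 2, 3 or 4 or WT replicate 4, Itgam without any KO replicate or WT replicate 2 or 4, and Itgb2 and Tlr1 without any 1 library other than WT replicate 1 (adjusted p up to 0.0756, 0.0885 and 0.127 for Ticam1, Itgam and Itgb2 without KO replicate 4, and 0.105 for Tlr1 without WT replicate 4), and none of the 4 was called without WT replicates 3 and 4 (0.0661 to 0.114). Among the other receptors of oxidised lipoprotein, the class of Olr1, 1 of 11 tested rose and 2 fell. Stab1 fell to 46.0 ± 2.91 TPM in KO, against 66.2 ± 4.12 TPM in WT (-0.52, 0.00503), and kept the call without each library. Marco fell by 0.71 (0.0348), a call lost without any 1 library other than WT replicate 3 (up to 0.0941, without KO replicate 3). Cd68 rose by 0.29 (0.0394), a call lost without any 1 library other than WT replicate 1 (up to 0.109, without KO replicate 4) and also lost without WT replicates 3 and 4 (0.0868).

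All 10 genes of the macrophage list passed the filter on low values. Of these, 2 were named after their values were seen. Adgre1 averaged 308 ± 12.8 TPM in KO and 273 ± 21.9 TPM in WT, and Csf1r 117 ± 3.40 TPM in KO and 100 ± 8.27 TPM in WT. The macrophage list summed to 4544 to 4922 TPM in KO and 6008 to 6932 TPM in WT. Of these sums lysozyme (Lyz2), named after its values were seen, made up 1927 ± 110 TPM in KO and 3993 ± 248 TPM in WT (log2 fold change -1.05, adjusted p = 0.000195). Of its 10 genes 3 rose and 1 fell, 9 were above 0 with a median log2 fold change of 0.26, and 8 were higher and 1 lower at an unadjusted p under 0.05. Without WT replicates 3 and 4 only the fall of Lyz2 was called. The lectins are also expressed by neutrophils, monocytes and dendritic cells. Neutrophil markers summed to 158 to 252 TPM in KO and 208 to 303 TPM in WT, with 0 of 7 tested called by limma (1 lower at an unadjusted p under 0.05) and Ly6g, Elane and Mpo never over 1 TPM. Monocyte markers summed to 59.4 to 86.7 TPM in KO and 55.8 to 67.8 TPM in WT, with 0 of 4 called by limma and 0 at an unadjusted p under 0.05. Dendritic cell markers summed to 25.6 to 27.8 TPM in KO and 15.8 to 22.9 TPM in WT, and 7 of the 10 were never over 1 TPM. Of 3 tested, 1 rose by limma (2 higher and 0 lower at an unadjusted p under 0.05). That call did not hold in every fit without 1 library, and 0 were called without WT replicates 3 and 4. Stromal markers summed to 5827 to 6154 TPM in KO and 4737 to 5179 TPM in WT, above the macrophage list in KO and below it in WT. Of 9 tested, 5 rose, or 4 without WT replicates 3 and 4 (6 higher and 0 lower at an unadjusted p under 0.05). The part of these shifts in the lectin differences was not tested.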

How the data were processed

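RNA from 8 BMDM libraries was sequenced. Per the labels' protocols, total RNA was column-extracted and NEBNext Ultra RNA libraries gave paired NovaSeq reads of 51 bases. The submitters' processing notes name Salmon 1.2.0, bcl2fastq and mm10, with no annotation or options. Values were deposited by the authors as TPM per gene, to 2 decimals. The unit was read from the values, which sum to 1000000 in each library.

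Symbols came from GENCODE M21 (55240 of 55421 identifiers matched, 181 did not). The 13933 genes above 1 TPM in 4 or more libraries were compared as log2(TPM + 1), which understates changes of low genes, with limma 3.58.1 in R 4.3.3 (group as the single term, mean-variance trend, Benjamini-Hochberg adjustment over all genes tested, threshold 0.05). The code was tested on simulated data. "Rose" and "fell" are used of genes past that threshold. Intervals are 95% limma intervals of 1 gene, not adjusted.

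The members, the gene lists and the tests were chosen with earlier results of these data known. Named genes are all members, Smarcd1, up to 4 called genes per list by smallest adjusted p (the 2 most abundant where none was called), called genes inside the clusters and the 5 genes nearest to Clec4e; others are said to be named after their values were seen. Some called genes are not reported here. Lists are described by counts and medians. No pair of libraries was identical. Shared sequence was measured as 51-base stretches of GENCODE transcripts. Alternatives were the pseudocount, the filter, the trend, the scaling, a replicate block and left-out libraries.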

Additional observations from a re-analysis of the deposited data

Results flagged for a closer look

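In 112 groups of 4 libraries tested, 5 held a library far from the other 3 of its group, where chance gives about 1 group in 20. No group of the 10 lectins was among them. Inpp5d was lowest in Baf60a KO replicate 2, at 36.6 TPM. Stab1 was also lowest in Baf60a KO replicate 2, at 41.6 TPM. Cd72 was highest in WT replicate 1, at 145 TPM. Cxcl2 was highest in WT replicate 2, at 11.3 TPM. Rpp40 was highest in WT replicate 2 as well, at 8.50 TPM.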

How the results depend on the processing

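The count of genes called (782) was 364 with no filter on low values and 372 (201 higher and 171 lower) without WT replicates 3 and 4 together. It ranged from 156 to 679 when 1 library was left out, with the lowest count without KO replicate 4. Among the lists around the lectins, 24 genes were called, against 10 with no filter, 10 without WT replicates 3 and 4 together, and 7 to 21 without 1 library. Of the lectins, 3 were called, and 1 to 3 without 1 library. These counts include Clec4e, on which the set was chosen and which carries no test. Without KO replicate 1 or 4 no lectin other than Clec4e was called. Signs turned for Clec4a2 (-0.0215 without WT replicates 3 and 4), Clec2d (0.0030 without KO replicate 4, 0.015 without WT replicate 3 and as low as -0.0958 in the other fits without 1 library) and Spi1 (-0.0491 without WT replicates 3 and 4). The value of Necap1 near 0 also turned, to -0.0240 with median-of-ratios scaling, -0.0156 with quantile normalization, -0.0846 without WT replicates 3 and 4 and -0.0120 with TPM rescaled over protein-coding genes, and lay between -0.0260 and 0.0664 without 1 library. The cause of these changes was not tested. The values of single genes under the alternatives were otherwise on the same side of the threshold in 781 cases, lost a call in 177 and gained one in 2. Deviations of same-numbered libraries correlated at -0.113 to 0.0124, and those of the other pairs at -0.133 to 0.107. With 4 libraries per group this cannot show whether the replicate numbers pair the libraries, which the labels do not state. With the replicate number as a block, 209 genes and 12 list genes were called. Of the lectins, Clec12a was called. Clec4e was also past the threshold, but it carries no test, since the set was chosen on it.

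No scaling moved the median of all genes by over 0.1 on the log2 scale. With TPM alone, the depth behind a value is unknown, and a gene listed at 0 has no detection limit. Low genes such as Olr1 and Cxcl1 are the least certain.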
